A study of Oryza sativa with 6 samples.

Results

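The cellulose synthase catalytic subunit (CESA) genes of rice were followed from the end of the day to the end of the night. The 9 loci were taken by their MSU identifiers from the 55801 loci of each count table. The 6 primary-wall genes were CESA1, CESA2, CESA3, CESA5, CESA6 and CESA8, and the 3 secondary-wall genes were CESA4, CESA7 and CESA9. All 9 passed the filter on low counts, which left 20548 loci, and all had at least 1 count in every library. RNA was sequenced from the japonica cultivar Nipponbare, with PM libraries (n = 3) from plants harvested 30 min ahead of lights-off and AM libraries (n = 3) from plants harvested 30 min ahead of lights-on. All plants were kept on Chu's medium at 28 °C under 12 h of light and 12 h of darkness, with no other treatment. The series set these time points side by side to ask how the choice of reference genome affects expression and splicing results.

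Cellulose is made at the plasma membrane by rosette complexes built from several different CESA proteins, each of which joins glucose from UDP-glucose into a chain. Growing cells lay down an extensible primary wall with one set of CESA subunits. Cells that have stopped growing, such as those of xylem and fibres, build a thick secondary wall with another set. In rice, mutants in CESA4, CESA7 or CESA9 have brittle culms with thin secondary walls.

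Gene counts came to 13 M to 41.7 M in PM and 22.3 M to 66.7 M in AM. The labels name whole seedlings as the harvested material but give panicle as the organ. The 11 floral identity genes of the marker list summed to 4.49 to 5.96 CPM in PM and 7.1 to 9.46 CPM in AM, and MADS8 and MADS13 had no count in any library. CPM here are counts scaled to a common library size with trimmed-mean (TMM) factors. The shoot meristem gene OSH1 also had no count in any library. Nothing states that replicates were separate plants, so the spread behind each p-value is that between these libraries and may be technical. In such bulk RNA, fewer cells of a type and less RNA per cell cannot be told apart.

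The family split into 3 patterns. At the end of the day CESA2 and CESA5 were higher, the 3 secondary-wall genes were far lower, and CESA1, CESA3 and CESA8 were modestly lower relative to the median locus. Of the 9 genes, 2 were higher and 6 lower in PM by edgeR's quasi-likelihood test (Benjamini-Hochberg adjustment over all loci, threshold 0.05), and CESA6 did not pass. Of all loci tested, 55.9% passed in either direction, 28.0% higher and 28.0% lower, so that a single call is common in this comparison. Changes over 4-fold were found at CESA2 among the higher genes and at all 3 secondary-wall genes among the lower ones, against 9.29% of all loci higher and 10.7% lower. After TMM scaling, PM and AM values did not overlap at any of the 9 genes, against 64.1% of all loci without overlap.

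These fold changes depend on the scaling of the libraries. With library totals alone the median locus lay at 0.84 log2 units in PM over AM, and at −0.01 after TMM scaling. CESA2 and CESA5 remained higher and CESA4, CESA7 and CESA9 lower with library totals alone, and the calls at CESA1, CESA3 and CESA8 ended. PM and AM values of CESA1, CESA3, CESA6 and CESA8 overlapped when scaled by totals. On that scale 68.0% of all loci passed, 54.5% higher and 13.5% lower, and 5 of the 9 CESA genes did. Unless stated otherwise, levels are TMM-normalised CPM and changes are relative to the median locus.

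**Figure D1:**
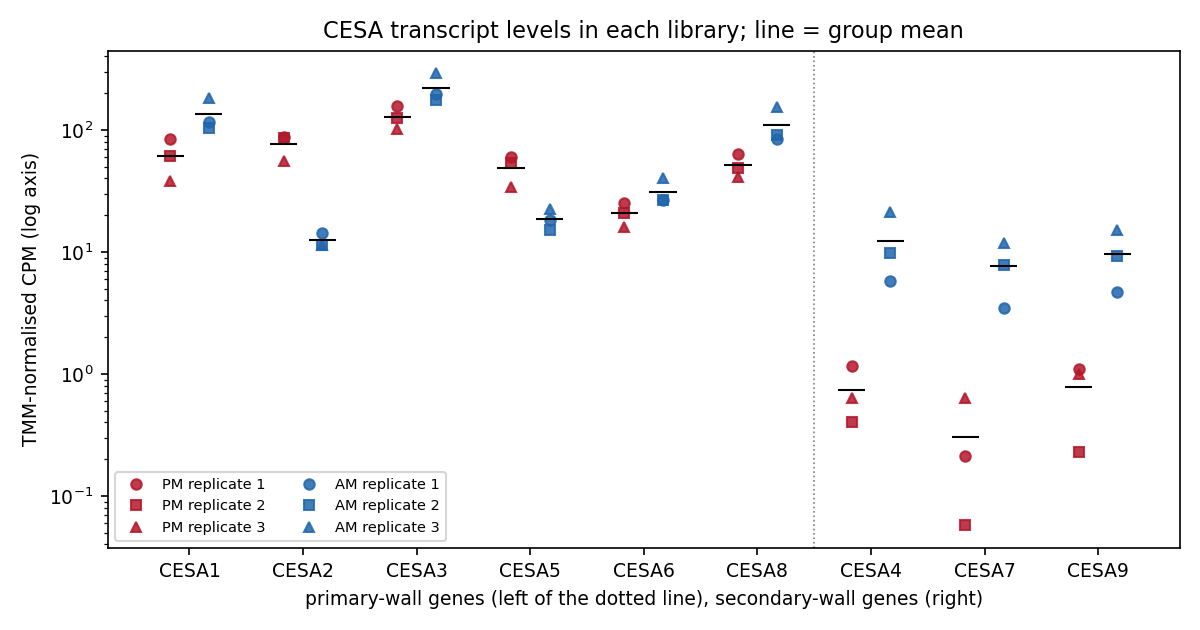
TMM-normalised CPM on a log axis for each CESA gene in the 3 PM (red) and 3 AM (blue) libraries, with the group mean as a line. PM points lie above AM points at CESA2 and CESA5 and below them at the other genes, by the widest distance at CESA4, CESA7 and CESA9; with library totals alone CESA3 and CESA6 change sign.

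Among the primary-wall genes, CESA2 (LOC_Os03g59340) had the largest rise. It stood at 87.1, 85.9 and 56.1 CPM in PM replicates 1, 2 and 3, against 14.4, 11.4 and 11.5 CPM in AM replicates 1, 2 and 3. Every PM library was far above every AM library, and the means were 76.4 ± 17.6 and 12.5 ± 1.69 CPM (SD, n = 3 each). PM exceeded AM by a log2 fold change of 2.62 (SE 0.22), a 6.14-fold rise, with an edgeR adjusted p of 2.39e-05. This exceeded the change of 94.4% of all tested loci. CESA2 stayed higher under every alternative tried, between 2.52 and 3.46, with library totals alone giving the 3.46.

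CESA5 (LOC_Os03g62090), the other primary-wall gene that rose, stood at 60.5, 53.2 and 34.1 CPM in PM replicates 1, 2 and 3, against 18.3, 15.1 and 22.3 CPM in AM replicates 1, 2 and 3. The groups were separated, though PM replicate 3 lay nearer to the AM range than the other PM libraries did. Its log2 fold change was 1.41 (SE 0.25, edgeR adjusted p = 0.00139). Counts on CESA2 were 1.57 ± 0.111 times those on CESA5 in PM and 0.688 ± 0.148 times in AM (SD, n = 3 each), a ratio within each library that no scaling between libraries can alter. CESA2 therefore changed by more than CESA5, with no overlap of the ratio between PM and AM.

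CESA1, CESA3 and CESA8 are also subunits of primary-wall complexes. CESA1 (LOC_Os05g08370) stood at 83.7, 60.6 and 38.5 CPM in PM replicates 1, 2 and 3, against 116, 103 and 183 CPM in AM replicates 1, 2 and 3. Its log2 fold change was −1.14 (SE 0.32, edgeR adjusted p = 0.014), and it was −0.31 with library totals alone (adjusted p = 0.433). The lowest AM library and the highest PM library were close, and the libraries numbered 3 lay farthest apart.

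For CESA8 (LOC_Os07g10770) too, AM replicate 3 was the highest AM library and PM replicate 3 the lowest PM library. It had 64, 49.2 and 41.1 CPM in PM replicates 1, 2 and 3, against 83.7, 91.6 and 153 CPM in AM replicates 1, 2 and 3. The log2 fold change was −1.09 (SE 0.27, edgeR adjusted p = 0.00799), against −0.26 with library totals alone (adjusted p = 0.455). Leaving out any 1 library kept both CESA1 and CESA8 past the threshold, at −1.43 to −0.84 and −1.27 to −0.77.

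CESA3 (LOC_Os07g24190) changed by less. Its values were 158, 126 and 101 CPM in PM replicates 1, 2 and 3, against 196, 175 and 291 CPM in AM replicates 1, 2 and 3. The groups did not overlap, yet AM replicate 3 alone was well clear of the PM libraries. The log2 fold change was −0.78 (SE 0.25, edgeR adjusted p = 0.0243). CESA3 was no longer called without AM replicate 3 (−0.52, adjusted p = 0.069), PM replicate 2 (−0.76, adjusted p = 0.0617) or PM replicate 3 (−0.63, adjusted p = 0.0769), and the value was 0.04 with library totals alone.

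CESA6 (LOC_Os07g14850) was the one family member that did not pass the threshold. It had 25.4, 20.7 and 16.1 CPM in PM replicates 1, 2 and 3, against 26.4, 26.6 and 40.4 CPM in AM replicates 1, 2 and 3. The highest PM library and the lowest AM library were nearly equal. The log2 fold change was −0.59 (SE 0.24, edgeR adjusted p = 0.0629) and 0.24 with library totals alone. A p that misses the threshold does not show that CESA6 kept a constant level.

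The secondary-wall genes were low in PM and moderate in AM. CESA4 (LOC_Os01g54620), mutated in brittle-culm lines, had 33, 7 and 35 counts in PM replicates 1, 2 and 3, against 101, 420 and 623 counts in AM replicates 1, 2 and 3. These are 1.17, 0.403 and 0.639 CPM in PM and 5.83, 9.71 and 21.1 CPM in AM, with a wide gap between the groups and a wide range within AM. The log2 fold change was −4.02 (SE 0.56, edgeR adjusted p = 0.000389), and −3.37 without AM replicate 3.

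CESA7 (LOC_Os10g32980), another subunit of the secondary-wall complex, had 6, 1 and 35 counts in PM replicates 1, 2 and 3, against 60, 339 and 351 counts in AM replicates 1, 2 and 3. An observed count of 0 would still allow a level of up to 3 counts. The single count in PM replicate 2 is under that floor, so the level of CESA7 there is poorly fixed. In CPM, CESA7 stood at 0.213, 0.0575 and 0.639 in PM and at 3.46, 7.84 and 11.9 in AM. PM replicate 3 was the highest of the PM libraries but still below every AM library. The log2 fold change of −4.43 (SE 0.68, edgeR adjusted p = 0.000653) moved to −5.66 without PM replicate 3.

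CESA9 (LOC_Os09g25490), the third secondary-wall subunit, had 31, 4 and 55 counts in PM replicates 1, 2 and 3, against 82, 403 and 443 counts in AM replicates 1, 2 and 3. In CPM these are 1.1, 0.23 and 1 in PM and 4.73, 9.32 and 15 in AM. AM replicate 1 was the lowest AM library at all 3 secondary-wall genes and PM replicate 2 the lowest PM library. The log2 fold change was −3.55 (SE 0.56, edgeR adjusted p = 0.000776). All 3 genes stayed lower with library totals alone, at −3.21 for CESA4, −3.63 for CESA7 and −2.74 for CESA9. Between 2.41% and 3.9% of all tested loci had a lower fold change than these genes.

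Of the 5 root genes of the marker list, 4 matched by name and RCc3 was dropped. After TMM scaling 2 of the 3 tested were lower in PM, against 28.0% of all loci. With library totals alone 1 was lower, against 13.5% of all loci. The 4 genes summed to 16.3 to 20.5 CPM in PM and 34 to 47.2 CPM in AM, and to 21.8 to 28.2 in PM and 26.5 to 38.5 in AM with library totals alone, which overlap. LSI2, a silicon efflux transporter of roots, had no count in any library. LSI1, the matching influx channel, was at 6.44 ± 0.563 CPM in PM and 22.1 ± 6.13 CPM in AM (SD, n = 3 each; log2 −1.78, SE 0.24, edgeR adjusted p = 0.000299). HKT2;1, a sodium transporter, was lower after TMM scaling (−1.77, SE 0.63, edgeR adjusted p = 0.0395) with overlapping values, and lost its call with library totals alone (adjusted p = 0.181). The potassium channel gene AKT1 did not pass (−0.31, SE 0.25), and stood at 0.52 with library totals alone. Of the 5 floral genes tested, MADS58 was higher after TMM scaling (log2 1.69, SE 0.41, edgeR adjusted p = 0.00754). MADS16 was lower (−1.98, SE 0.42, edgeR adjusted p = 0.00384), and the other floral genes tested were not called. Scaling by totals gave 2 higher and 1 lower. Over all loci, 28.0% were higher and 28.0% lower after TMM scaling, and 54.5% and 13.5% by totals. The floral sum given above was lower in PM after TMM scaling but was 6 to 7.83 CPM in PM and 5.79 to 6.14 CPM in AM with library totals alone. The part of tissue make-up in the CESA result was not tested.

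**Figure D2:**
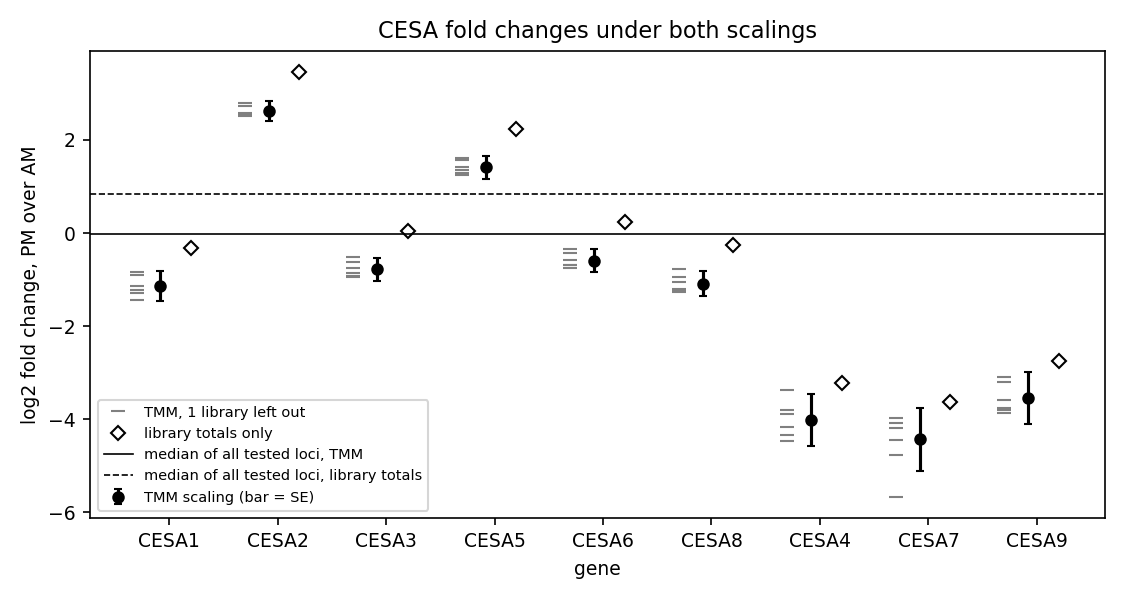
Log2 fold change of PM over AM for each CESA gene after TMM scaling (filled, bar = SE), with each library left out in turn (grey dashes) and with library totals only (open diamonds). The horizontal lines mark the median of all tested loci at −0.01 and 0.84; CESA1, CESA3, CESA6 and CESA8 lie below the matching line on either scale, although CESA3 and CESA6 are above 0 with library totals only.

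The make-up of the family was compared within libraries, which removes the scaling between them. Gene lengths were not used, so these shares of reads compare 1 gene between time points and do not rank the genes. CESA2 took 18.1%, 21.7% and 19.4% of all reads on the 9 genes in PM replicates 1, 2 and 3, against 3.08%, 2.55% and 1.54% in AM replicates 1, 2 and 3. CESA2 and CESA5 together took 32.3% ± 2.39 in PM and 5.8% ± 1.24 in AM (SD, n = 3 each). The shares of both genes were separated between PM and AM by more than the whole range within either group.

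CESA1, CESA3 and CESA8 together held 61.8% ± 2.05 of the CESA reads in PM and 83.4% ± 1.11 in AM (SD, n = 3 each). This trio was put together after the values had been seen. Shares within a library are tied, so the smaller share of CESA2 and CESA5 in AM raises the others without any change in them. CESA6 was the one gene whose share overlapped, at 5.36% ± 0.188 in PM and 5.64% ± 0.263 in AM (SD, n = 3 each). Relative to CESA3 within each library, CESA6 had 0.162 ± 0.00208 counts per CESA3 count in PM and 0.142 ± 0.00907 in AM, and CESA1 had 0.464 ± 0.0756 in PM and 0.604 ± 0.0212 in AM (SD, n = 3 each). Both ratios shifted by less than that of CESA2 to CESA3, which was 0.596 ± 0.0724 in PM and 0.0596 ± 0.0178 in AM (SD, n = 3 each).

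The secondary-wall genes held a small part of the CESA reads at both times, with no correction for gene length. They took 0.518% of CESA reads in PM replicate 1 (95% Wilson interval 0.41 to 0.654), 0.174% in PM replicate 2 (0.0996 to 0.304) and 0.79% in PM replicate 3 (0.663 to 0.94). In AM replicates 1, 2 and 3 they took 2.99% (2.64 to 3.39), 5.98% (5.65 to 6.32) and 6.42% (6.1 to 6.75). No PM interval reached an AM interval. The intervals, which cover counting error only, overlapped between AM replicates 2 and 3 and lay apart for the other pairs of libraries of 1 time point.

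Summed over the 9 genes, the family did not separate the time points. It held 389 ± 96.1 CPM in PM and 556 ± 168 CPM in AM after TMM scaling, and 524 ± 141 in PM and 423 ± 168 in AM in CPM by library totals alone (SD, n = 3 each). Both pairs overlapped and they pointed in opposite directions.

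**Figure D3:**
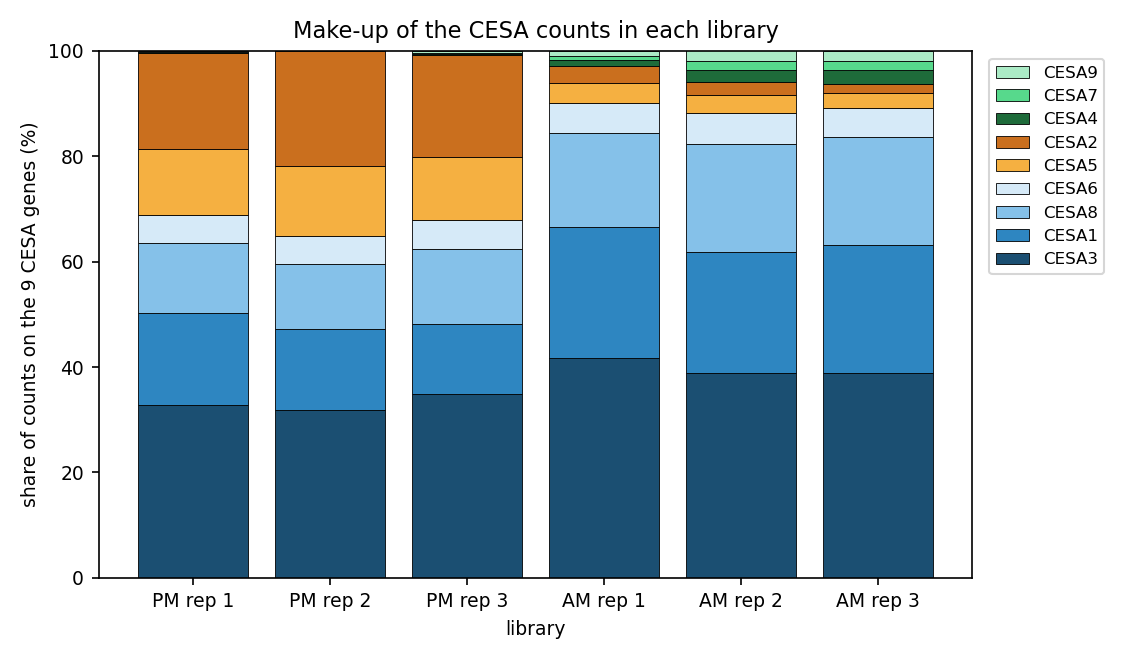
Share of the reads counted on the 9 CESA genes that fell on each gene, in percent, for the 3 PM and 3 AM libraries. CESA2 and CESA5 (orange) fill 30.7% to 35.1% of each PM bar and 4.52% to 7% of each AM bar, and the secondary-wall genes (green) are visible mainly in the AM bars.

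Within a time point, libraries also differed in a way that several CESA genes shared. AM replicate 3 was the highest AM library at 8 of the 9 genes, all but CESA2, against 37.8% of all tested loci. It exceeded the mean of the other AM libraries by 0.61 to 0.81 log2 units at CESA1, CESA3, CESA6 and CESA8 and by 1.08 to 1.44 at the secondary-wall genes, where the median locus was at −0.01. PM replicate 3 was the lowest PM library at all 6 primary-wall genes, against 34.6% of all loci, with log2 ratios of −0.46 to −0.91. The tests of CESA1, CESA3 and CESA8 rest partly on these libraries, as the values without them show.

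Pearson correlations of log2 CPM over the 6 libraries described how alike the profiles were. The points fall into 2 time points, so a high r can reflect that split alone. CESA1, CESA3, CESA6 and CESA8 had r of 0.97 to 0.99 with one another. Of the 20547 other tested loci, CESA3 was the most like CESA1, and no member of this quartet ranked below 58 for another member. For CESA4, CESA7 and CESA9 r was 0.95 to 0.98, with ranks of 198 to 1261, and for CESA2 and CESA5 it was 0.96, with ranks of 592 and 2257. CESA2 ran against all 3 secondary-wall genes, with r of −0.94 to −0.97. Outside the family, the loci nearest to the mean secondary-wall profile were LOC_Os03g27230 and LOC_Os03g18140 (both r = 0.999, log2 fold changes −2.62 and −1.57). Those nearest to the mean primary-wall profile were LOC_Os08g06470 (r = 0.984) and LOC_Os01g19450 (r = 0.96), with log2 fold changes of only −0.2 and −0.16. That mean pools genes that ran against one another, such as CESA2 and CESA8 (r = −0.82). Nearness to it need not be likeness to any single primary-wall gene.

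**Figure D4:**
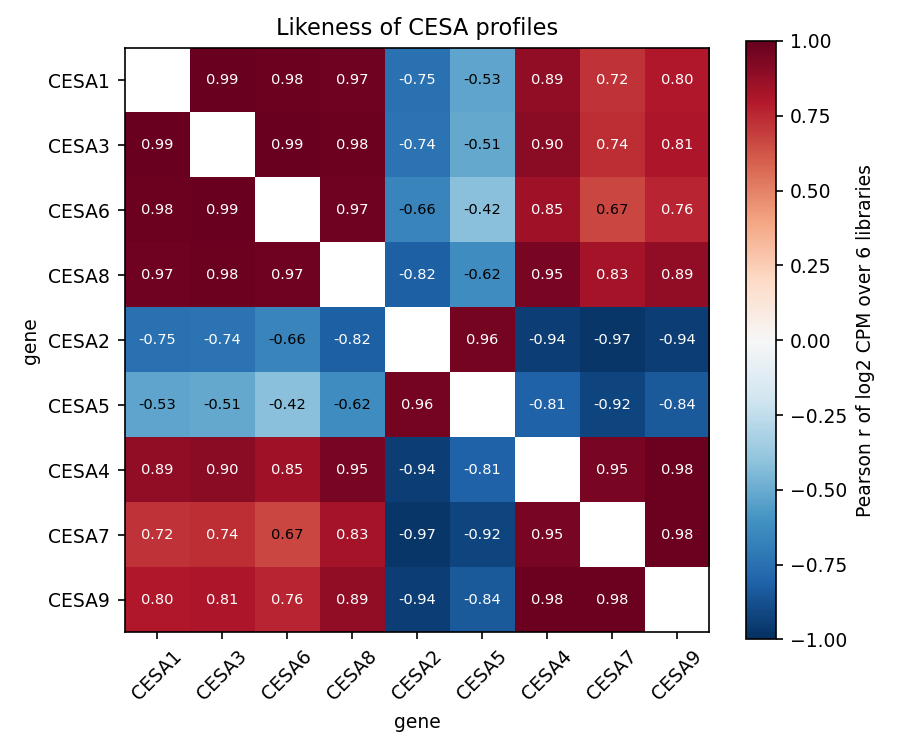
Pearson r of log2 CPM over the 6 libraries for each pair of CESA genes, from −1 (blue) to 1 (red). CESA1, CESA3, CESA6 and CESA8 form a block at 0.97 to 0.99, CESA4, CESA7 and CESA9 a block at 0.95 to 0.98, and CESA2 with CESA5 a pair at 0.96.

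Genes that work beside the CESA proteins changed in both directions, though only 3 of the 11 listed matched by name and were tested. BC1, a COBRA-like protein needed for cellulose assembly in secondary walls, had 4, 0 and 14 counts in PM replicates 1, 2 and 3, against 24, 162 and 154 counts in AM replicates 1, 2 and 3. No PM library reached the lowest AM library. Its log2 fold change was −4.40 (SE 0.74, edgeR adjusted p = 0.00106), −5.29 without PM replicate 3 and −3.59 with library totals alone, which is close to the values of CESA4, CESA7 and CESA9. The kinesin gene BC12, linked to the orientation of cellulose microfibrils, stood at 61.8 ± 8.94 CPM in PM and 114 ± 10.8 CPM in AM (SD, n = 3 each; log2 −0.88, SE 0.17, edgeR adjusted p = 0.00223), and its change was −0.04 with library totals alone. GLU1, a membrane-bound endoglucanase, was at 20.8 ± 3.21 CPM in PM and 14.5 ± 1.62 CPM in AM (SD, n = 3 each; log2 0.51, SE 0.19, edgeR adjusted p = 0.0422). The GLU1 call ended without any 1 of AM replicates 1, 2 and 3 or PM replicates 1 and 2, at 0.43 to 0.59.

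The cellulose synthase-like (CSL) family, relatives of CESA that make the backbones of other wall polysaccharides, was mixed. Of 33 listed genes 24 matched by name, and 15 of the matched genes passed the filter on low counts. Of these, 5 were higher, 6 lower and 4 past neither side, with a median of −0.70. Over all loci tested, 28.0% were higher and 28.0% lower. Scaling by library totals alone gave 7 higher and 2 lower, with a median of 0.11, where 54.5% of all loci were higher and 13.5% lower. CSLC9, of a group that makes the xyloglucan backbone in Arabidopsis, had the smallest p among the higher members. It stood at 40.5, 31.6 and 31.5 CPM in PM replicates 1, 2 and 3, against 4.62, 5.87 and 4.52 CPM in AM replicates 1, 2 and 3, with no overlap (log2 2.78, SE 0.20, edgeR adjusted p = 1.09e-05).

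CSLA5 and CSLA3, of the mannan synthase group, rose by 1.77 (SE 0.21) and 1.59 (SE 0.21). Among the lower members, CSLF6, the main synthase of the mixed-linkage glucan of grass walls, had the smallest p. CSLF6 stood at 16.6, 11 and 12.3 CPM in PM replicates 1, 2 and 3, against 66.7, 102 and 113 CPM in AM replicates 1, 2 and 3, a wide separation (log2 −2.82, SE 0.25, edgeR adjusted p = 3.53e-05). CSLE1 was at −1.32 (SE 0.33) and −0.51 with library totals alone, where it was not called. CSLD4, which is needed for normal leaf width in rice, was at −2.60 (SE 0.61) on 24 counts in PM and 136 in AM.

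Of 5 listed xylan genes, which build the main hemicellulose of grass walls, 3 matched by name and were tested. Among these 3, 1 was lower and 2 did not pass, against 28.0% of all loci lower. IRX9 was at 0.651 ± 0.244 CPM in PM and 2.06 ± 0.428 CPM in AM (SD, n = 3 each; log2 −1.65, SE 0.39, edgeR adjusted p = 0.00656), and at −0.78 with library totals alone, where the call ended. IRX14 was at −0.37 (SE 0.15) and IRX9L at 0.10 (SE 0.15). With library totals alone IRX14 stood at 0.48 and IRX9L at 0.94, both past the threshold, as were 54.5% of all loci on the higher side.

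**Figure D5:**
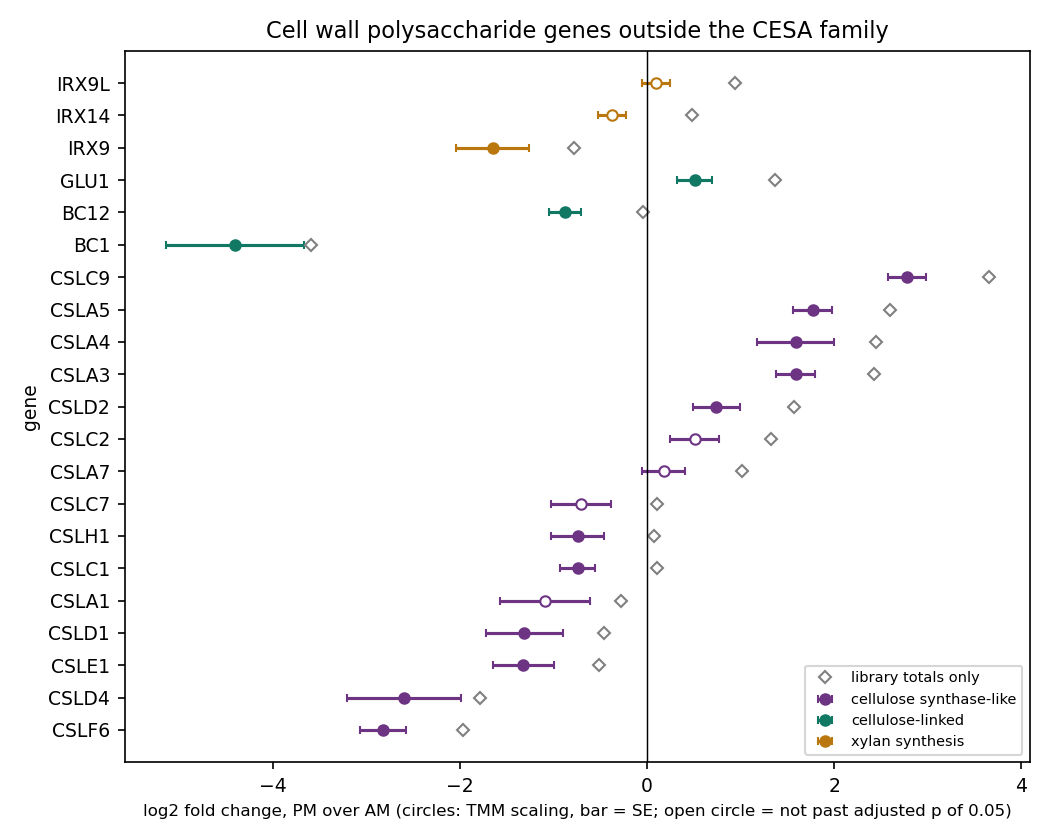
Log2 fold change of PM over AM for the tested cellulose synthase-like, cellulose-linked and xylan genes after TMM scaling (circles, bar = SE, open where the adjusted p was not under 0.05) and with library totals only (grey diamonds). BC1 (−4.40), CSLF6 (−2.82) and CSLC9 (2.78) are farthest from 0, and CSLC1, CSLC7, CSLH1 and IRX14 change sign between the scalings.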

How the data were processed

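Per the submitters' processing notes, the authors used Trimmomatic 0.33, STAR and HTSeq 0.6.1, and the 6 deposited files hold raw counts per locus under MSU identifiers. RNA came from a Qiagen plant kit and libraries from a NEB directional kit, per the labels' protocols. Genome build, annotation and strand setting were not given in the sources used here. Hence no coordinates are printed, and overlapping or antisense loci are not separable. Reads aligned to more than 1 place (39.1% to 56.1% of records) were not counted on any gene. Related genes such as the CESA paralogs can therefore lose reads, which leaves their levels uncertain. The size of that loss at the CESA genes was not measured. The 5 summary lines of each file stayed out of library sizes and tests. No pair of replicates agreed within sampling noise, with chi-square values of 19.9 to 142 per degree of freedom.

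The comparison of PM with AM used glmQLFTest of edgeR 4.0.16 (R 4.3.3), its quasi-likelihood test, with TMM factors and filterByExpr (minimum count 10), adjusted by Benjamini-Hochberg at 0.05 over 20548 loci. SEs come from the coefficient and its F statistic. The script was tested on simulated data, where libraries shared a common mean profile and few loci were changed, as many raised as lowered. That simulation held no shift between library totals and TMM scaling, so it cannot speak to the choice of scaling. It also gave every locus the same spread and changed only well-counted loci, so it cannot speak to calls at genes with few counts. A count of 0 allows up to 3 counts, or 0.0548 to 0.173 CPM. CPM were computed from the deposited counts, log2 CPM with a prior count of 2.

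The CESA genes and the other lists were chosen with earlier results of these data known. Names were looked up by symbol in the RefSeq table for ASM3414082v1. Since it carries no MSU identifiers, chromosome and order along it had to match too. Of 83 entries 55 matched, CSLF8 and BC12 through alternate symbols chosen after the table was seen. The other 28 were dropped, among them all 8 wall regulators. Text names all CESA genes, all tested cellulose-linked and xylan genes, in each direction the 3 called CSL members of smallest p and the 2 loci nearest to each mean profile among those averaging 3 or more in log2 CPM. Alternatives were RLE and upper-quartile scaling, library totals only, omitting the filter, requiring a mean of 5 CPM, DESeq2 1.42.0, limma-voom (limma 3.58.1), a replicate block, a threshold of 0.01 and leaving out each library.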

Additional observations from a re-analysis of the deposited data

How the results depend on the processing

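CESA2, CESA5, CESA4, CESA7 and CESA9 kept their direction and their call under every alternative that could test them. With library totals only, 11201 loci were higher and 2764 lower, 3 CESA genes were lower, 2 CSL genes were lower, and of the cellulose-linked and xylan genes 3 were higher and 1 lower; CESA3 stood at 0.04, CESA6 at 0.24 and IRX14 at 0.48, reversed from the TMM values. The shift of the median locus to 0.84 under that scaling accompanies these changes. With a mean of at least 5 CPM, 3 CSL genes and 1 cellulose-linked or xylan gene were lower. BC1, IRX9 and CSLD4 fell under that mean and were not tested, but missing genes do not account for the whole CSL difference. GLU1, the one higher gene of the cellulose-linked and xylan lists, was not called with the replicate block or at 0.01, leaving 0, and the count was 0 to 1 with 1 library left out. The cause was not tested. Same-numbered libraries had correlations of deviations of −0.0579, −0.273 and 0.102, within the −0.406 to 0.387 of the other pairs. With 3 libraries per group, such values cannot decide whether same-numbered libraries shared more than a number. With the replicate block 5077 loci were higher and 5060 lower, 2 CESA genes were higher and 5 lower, and CESA3 was not called (adjusted p = 0.0516). With any 1 library left out, 5 to 6 CESA genes were lower. The secondary-wall share of CESA reads averaged 0.346% to 0.654% in PM and 4.48% to 6.2% in AM with 1 library left out. Recomputing that share per kilobase was not run. Depth limits BC1, CSLD4 and CESA7, with 18, 24 and 42 counts over the PM libraries, and CSLD4 did not pass the filter without AM replicate 2 or 3.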
